A study of Mus musculus with 18 samples.

Results

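The 10 genes described here mark macrophages of the testis and their antigen presentation: Adgre1, Csf1r, Cd68, Mrc1, Cd163, Lyz2, C1qa, C1qb, H2-Aa and Cd74. They were chosen by symbol among the 22657 genes of the deposited table, through the NCBI gene numbers it uses, and all 10 had a value in all 18 libraries. RNA-seq was done on cultured testes of ICR mice. Mice that were given a single dose of busulfan (40 μg per g body weight) at 3 weeks of age, and age-matched mice that were not, gave testes 2 weeks later. Busulfan is an alkylating agent, toxic to dividing germ cells. The testes were kept for 48 h in DMEM/F12 medium with serum, with or without alginate oligosaccharides (AOS), short sugar chains made from brown algae. The groups without busulfan were A0 (medium alone), A10 (AOS at 10 μg/mL) and A50 (AOS at 50 μg/mL). The groups with busulfan were B0 (medium alone), BA10 (AOS at 10 μg/mL) and BA50 (AOS at 50 μg/mL). Each group had 3 libraries, numbered 1 to 3. The libraries came from whole testis tissue, and the methods describe several testes per treatment and repeats of the culture, but the sources used here do not tie a library to an animal or to a repeat, so the p-values measure the spread between these libraries only. The AOS doses are those of the sample labels; the design text of the series gives the same figures per kg of body weight.

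Macrophages are the main immune cells of the testis. They lie between the tubules beside the Leydig cells and along the tubule wall, and those of the tubule wall are known for carrying more MHC class II. The lineage depends on the receptor CSF1R and on the transcription factor PU.1, engulfs dying cells, and secretes the complement starter C1q. MHC class II molecules are pairs of an α and a β chain that travel with the invariant chain CD74, are loaded with peptides in endosomes and show them to CD4+ T cells. Their genes are switched on through the RFX complex, the CCAAT-binding factor NF-Y and the co-activator CIITA.

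Of the 10 genes, 6 had an entry among the RefSeq promoter sequences for GRCm38.p6 (Cd68, Mrc1, Cd163, Lyz2, C1qb and H2-Aa), and Adgre1, Csf1r, C1qa and Cd74 had none. The 250 bases before the start given by each promoter entry were searched on both strands. The words were GAGGAA, the core of many PU.1 sites, and CCAAT, the NF-Y core, which share no overlap. GAGGAA was in the window of Cd68, Mrc1 and C1qb and of C1qc, which encodes the remaining C1q chain, against 23.3% of 32851 promoter windows of the same length. CCAAT was in the window of Cd68, Mrc1, Cd163 and H2-Aa, against 33.8% of those windows. A match describes letters and not a bound site. The starts of the promoter entries can differ from the GENCODE gene bounds. For C1qc and Mrc1 the windows run into the GENCODE gene, which starts at chr4:136893065 (minus strand) and chr2:14229392 (plus strand). The windows of C1qb (chr4:136886201-136886450, minus strand) and C1qc (chr4:136892915-136893164, minus strand) are shown because the C1q chains kept nearly fixed proportions in these libraries, that of Mrc1 (chr2:14229164-14229413, plus strand) because it is the scavenger receptor with most matches, and that of H2-Aa (chr17:34287824-34288073, minus strand) for the MHC class II side. All are GRCm38 and read 5′ to 3′ along the gene, with GAGGAA or its reverse complement in capitals in the first 3 and CCAAT or its reverse complement in capitals in H2-Aa.
C1qb: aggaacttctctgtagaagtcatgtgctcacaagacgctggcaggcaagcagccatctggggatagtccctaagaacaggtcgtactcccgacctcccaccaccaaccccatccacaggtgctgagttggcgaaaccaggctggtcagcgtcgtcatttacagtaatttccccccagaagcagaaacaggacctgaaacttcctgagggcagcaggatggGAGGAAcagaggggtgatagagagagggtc
C1qc: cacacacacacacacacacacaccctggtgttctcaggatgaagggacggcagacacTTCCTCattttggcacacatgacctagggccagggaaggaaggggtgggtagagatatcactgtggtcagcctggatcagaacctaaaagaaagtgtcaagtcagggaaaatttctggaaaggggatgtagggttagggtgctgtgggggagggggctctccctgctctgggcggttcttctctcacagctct
Mrc1: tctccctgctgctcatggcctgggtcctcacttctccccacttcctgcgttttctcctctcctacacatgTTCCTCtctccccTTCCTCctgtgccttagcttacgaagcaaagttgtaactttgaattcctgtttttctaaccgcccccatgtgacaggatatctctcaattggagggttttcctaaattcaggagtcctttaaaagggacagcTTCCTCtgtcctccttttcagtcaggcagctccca
H2-Aa: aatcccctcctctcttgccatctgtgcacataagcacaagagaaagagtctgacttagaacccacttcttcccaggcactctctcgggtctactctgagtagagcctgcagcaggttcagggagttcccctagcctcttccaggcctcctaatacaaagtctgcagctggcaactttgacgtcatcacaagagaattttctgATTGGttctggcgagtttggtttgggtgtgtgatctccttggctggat

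The table holds FPKM, fragments per kilobase of gene scaled to the mapped fragments of the library, so that levels can be compared between genes. The FPKM of a library summed to between 463970 and 511274, and 14291 to 15040 genes reached 1 FPKM. The number of reads behind the values is unknown. Tests were run on the 15790 of 22657 genes that reached 1 FPKM in 3 or more libraries. Of the 10 genes, 9 passed and H2-Aa did not. A10 replicate 3 correlated least with its own group (mean r 0.935, against up to 0.987), and BA50 replicate 2 was lowest of all for most of the genes described here, so results that rest on these libraries are also given without them. As a check of the busulfan labels, spermatocyte genes fell: 6 of 7 passed the test in the comparison over all doses, with Sycp3, part of the meiotic chromosome axis, falling by 3.28 on the log2 scale (adjusted p = 3.03e-12, limma).

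Lyz2, which encodes the lysozyme of macrophages and granulocytes, was by far the most abundant of the 10, with a mean of 380.2 FPKM over the 18 libraries, above 98.9% of the genes tested. Cd68, a lysosomal membrane protein of phagocytes, followed at 75.6 FPKM. The C1q chains C1qa and C1qb stood at 54.1 and 39.3 FPKM. Mrc1, the mannose receptor CD206, had a mean of 19.2 FPKM. Csf1r, the receptor on which macrophage survival depends, and Adgre1, the F4/80 antigen, had means of 7.98 and 7.56 FPKM. Csf1r was the higher of the pair in 10 of 18 libraries, so that their order was not settled. Cd163, the receptor that clears haemoglobin, and Cd74 had means of 2.69 and 2.65 FPKM, and Cd163 was the higher in 8 of 18 libraries. H2-Aa came last at 0.426 FPKM. The other steps of this order held in 17 or 18 of 18 libraries.

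The macrophage genes were therefore read in every library, but Cd163 was under 1 FPKM in some of them, down to 0.19 FPKM in BA50 replicate 2. H2-Aa was under 1 FPKM throughout, while Cd74 stood at the level of Cd163. The dendritic cell receptor Flt3 stayed between 0.05 and 0.46 FPKM and Ccr2, the chemokine receptor of inflammatory monocytes, between 0.02 and 0.51 FPKM. Other genes of the same lists were higher: the dendritic cell genes Itgax and Zbtb46 read 2.89 to 6.26 and 3.09 to 4.38 FPKM, and the myeloid genes Plac8 and Camp 31.99 to 84.1 and 6.17 to 107.7 FPKM. The T cell gene Cd3e reached at most 0.75 FPKM, although Cd3d read 1.75 to 7.6 FPKM. Lyz2 is also made by granulocytes, and its near-identical paralog Lyz1 was listed at 0.02 to 0.71 FPKM.

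**Figure D1:**
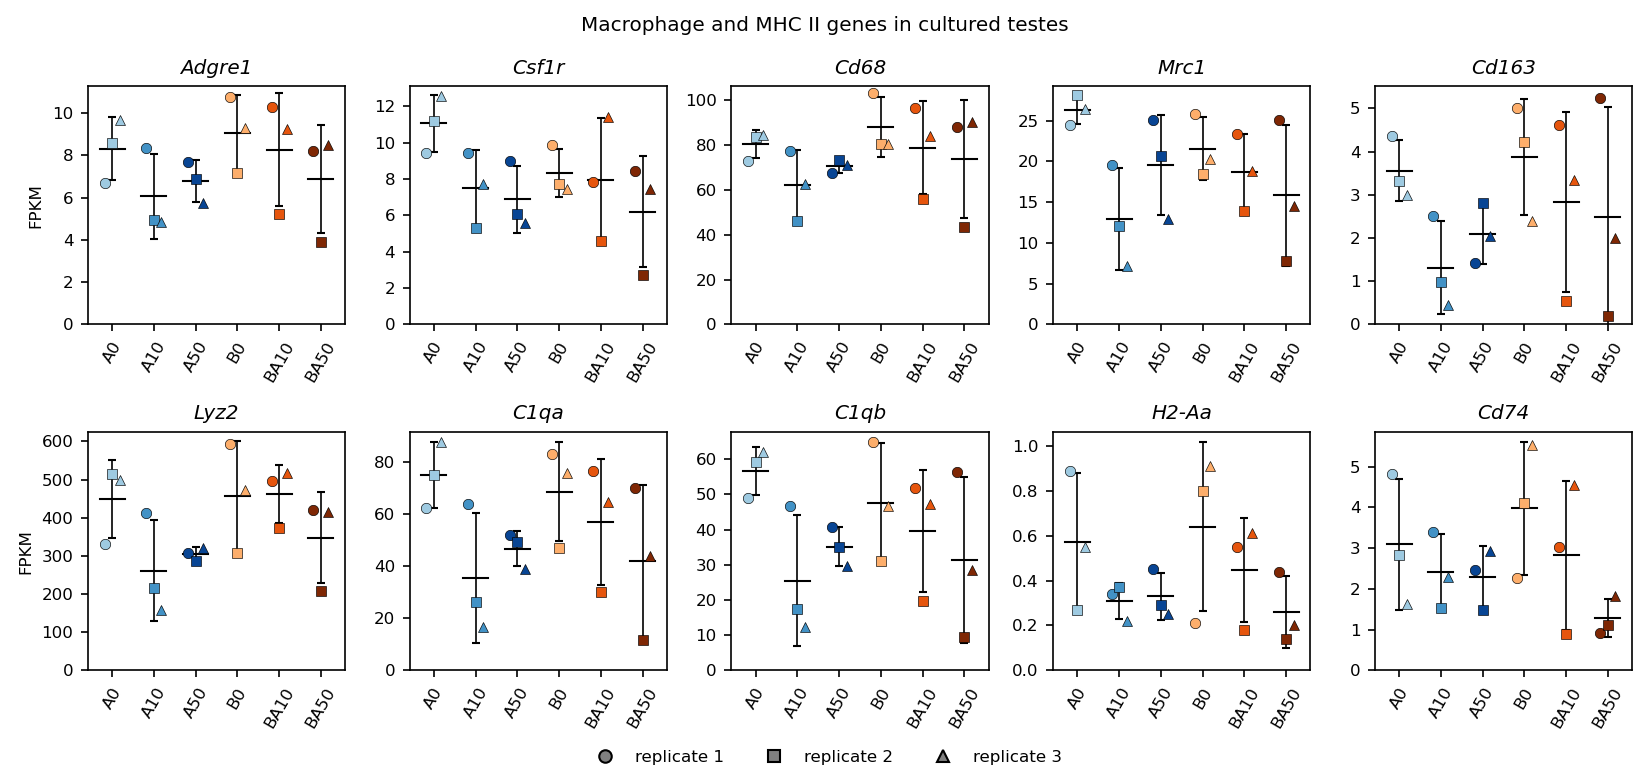
FPKM of the 10 genes in the 18 libraries, by group on the horizontal axis. Points are libraries (circle, square and triangle for replicates 1, 2 and 3), and bars are group means with SD (n = 3). The 3 libraries of BA50 and of A10 are far apart for C1qa, C1qb and Cd163, and the groups with and without busulfan cover the same range.

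Csf1r (chr18, a gene overlapped by Hmgxb3 on the other strand, and strand-specific counting is not given in the sources used here) read 9.43, 11.2 and 12.5 FPKM in A0, 9.45, 5.31 and 7.72 in A10, and 8.98, 6.09 and 5.56 in A50. With busulfan it read 9.87, 7.71 and 7.44 FPKM in B0, 7.82, 4.61 and 11.4 in BA10, and 8.41, 2.71 and 7.47 in BA50. The A50 libraries all lay below the A0 libraries, and the other pairs of groups compared overlapped. Adgre1 ranged over all libraries from 3.91 FPKM in BA50 replicate 2 to 10.7 FPKM in B0 replicate 1, a 2.74-fold range. Its group means ran from 6.05 ± 2.00 FPKM (SD, n = 3) in A10 to 9.07 ± 1.79 FPKM (SD, n = 3) in B0, and these ranges overlapped.

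Cd68 was the steadiest of the 10 genes, with a 2.37-fold range from 43.5 to 103.2 FPKM. Its group means lay between 62.0 ± 15.5 FPKM (SD, n = 3) in A10 and 88.0 ± 13.2 FPKM (SD, n = 3) in B0. Lyz2 read 330.4, 515 and 499 FPKM in A0, 412, 215 and 158 in A10, and 307, 286 and 320.4 in A50. The busulfan groups read 593, 306 and 472 FPKM in B0, 496, 374 and 516 in BA10, and 419.9, 209 and 414 in BA50. A50 lay below A0 in every library, while A10 overlapped it through A10 replicate 1.

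Mrc1, a receptor that takes up mannose-bearing glycoproteins, read 24.5, 28.2 and 26.4 FPKM in A0, 19.6, 12.1 and 7.22 in A10, and 25.1, 20.7 and 12.95 in A50. Its busulfan values were 25.9, 18.5 and 20.3 FPKM in B0, 23.3, 14.0 and 18.9 in BA10, and 25.1, 7.84 and 14.6 in BA50. All A10 libraries lay below all A0 libraries, and every busulfan group overlapped its counterpart. Cd163 had the widest span of the 10 genes, 27.6-fold between 0.19 FPKM in BA50 replicate 2 and 5.25 FPKM in BA50 replicate 1. Its low end lay under 1 FPKM, where fold ranges are uncertain. It read 4.35, 3.33 and 3.00 FPKM in A0, 2.51, 0.99 and 0.45 in A10, and 1.42, 2.82 and 2.04 in A50, so that both AOS groups lay below A0. With busulfan it read 5.01, 4.22 and 2.40 FPKM in B0, 4.61, 0.55 and 3.34 in BA10, and 5.25, 0.19 and 1.99 in BA50.

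C1qa and C1qb encode chains of C1q, the molecule that starts the classical complement pathway, and lie on either side of C1qc on the minus strand of chromosome 4 (GRCm38, GENCODE gene bounds chr4:136880129-136886187 for C1qb, chr4:136889804-136893065 for C1qc and chr4:136895917-136898803 for C1qa). C1qa read 62.1, 74.9 and 87.6 FPKM in A0, 63.9, 26.1 and 16.7 in A10, and 51.8, 49.3 and 39.1 in A50. In the busulfan groups it read 82.9, 47.0 and 75.6 FPKM in B0, 76.4, 29.99 and 64.6 in BA10, and 70.1, 11.7 and 43.8 in BA50. C1qb followed it from 9.55 FPKM in BA50 replicate 2 to 64.9 FPKM in B0 replicate 1. While C1qa covered a 7.52-fold range, its ratio to C1qb stayed between 1.22 and 1.62, a 1.33-fold range, and its ratio to C1qc between 1.02 and 1.43. The C1q chains were therefore read in nearly fixed proportion in libraries with much and with little of them. The promoter windows of C1qb and C1qc printed above each hold 1 match to GAGGAA, a word found in 23.3% of all windows, and C1qa had no promoter entry. A link between these matches and the proportions was not tested.

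H2-Aa, the α chain of the mouse class II molecule I-A, read 0.89, 0.27 and 0.55 FPKM in A0, 0.34, 0.37 and 0.22 in A10, and 0.45, 0.29 and 0.25 in A50. Its values with busulfan were 0.21, 0.80 and 0.91 FPKM in B0, 0.55, 0.18 and 0.61 in BA10, and 0.44, 0.14 and 0.20 in BA50. No library reached 1 FPKM, so that the gene was left out of the tests. In a fit without that limit its log2 changes in the 10 comparisons ran from -0.36 to 0.13, with adjusted p-values of 0.276 to 0.986 (limma). Cd74, the invariant chain, read 4.81, 2.84 and 1.62 FPKM in A0, 3.40, 1.54 and 2.3 in A10, and 2.47, 1.47 and 2.94 in A50. With busulfan it read 2.27, 4.11 and 5.54 FPKM in B0, 3.02, 0.90 and 4.54 in BA10, and 0.92, 1.12 and 1.82 in BA50. The BA50 libraries all lay below the B0 libraries, and the libraries of the other groups compared overlapped.

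The 8 macrophage genes of the set, H2-Aa and Cd74 left aside, went up and down together from library to library, also within groups. BA50 replicate 2 was among the 3 lowest of 18 libraries for all 9 genes tested, A10 replicate 2 for 7, A10 replicate 3 for 6 and BA10 replicate 2 for 4. Over the 18 libraries the 28 pairs among the 8 macrophage genes had Pearson r of 0.61 to 0.99 (median 0.83). After the group means were taken out, the r was 0.62 to 0.99 (median 0.84), so that the correlation was also present within groups. The 16 pairs of a macrophage gene with H2-Aa or Cd74 had r of 0.26 to 0.53 (median 0.41), and -0.06 to 0.36 (median 0.25) within groups. Not all phagocyte genes followed. Among 27 other phagocyte genes tested, r with the mean of the 8 macrophage genes ran from -0.67 to 0.93 (median 0.67). The lowest was Aif1, and Gpnmb (-0.27) and Clec7a (-0.22) were also below 0. Aif1 was highest in BA50 replicate 2, at 158 FPKM, and read 126 FPKM in A10 replicate 3. These are descriptions over libraries that share tissue, scaling and depth. Fewer macrophages and less RNA per macrophage cannot be told apart in whole tissue.

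Some ratios moved more than that of the C1q chains. Adgre1 relative to Cd68 kept a 1.5-fold range, but Mrc1 relative to Cd68 had a 3.22-fold range, from 0.116 in A10 replicate 3 to 0.372 in A50 replicate 1. C1qa relative to Cd68 had a 3.89-fold range and Lyz2 relative to Cd68 a 2.64-fold range. Cd163 relative to Csf1r covered a 10.7-fold range, lowest in A10 replicate 3, where Cd163 was only 0.45 FPKM.

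**Figure D2:**
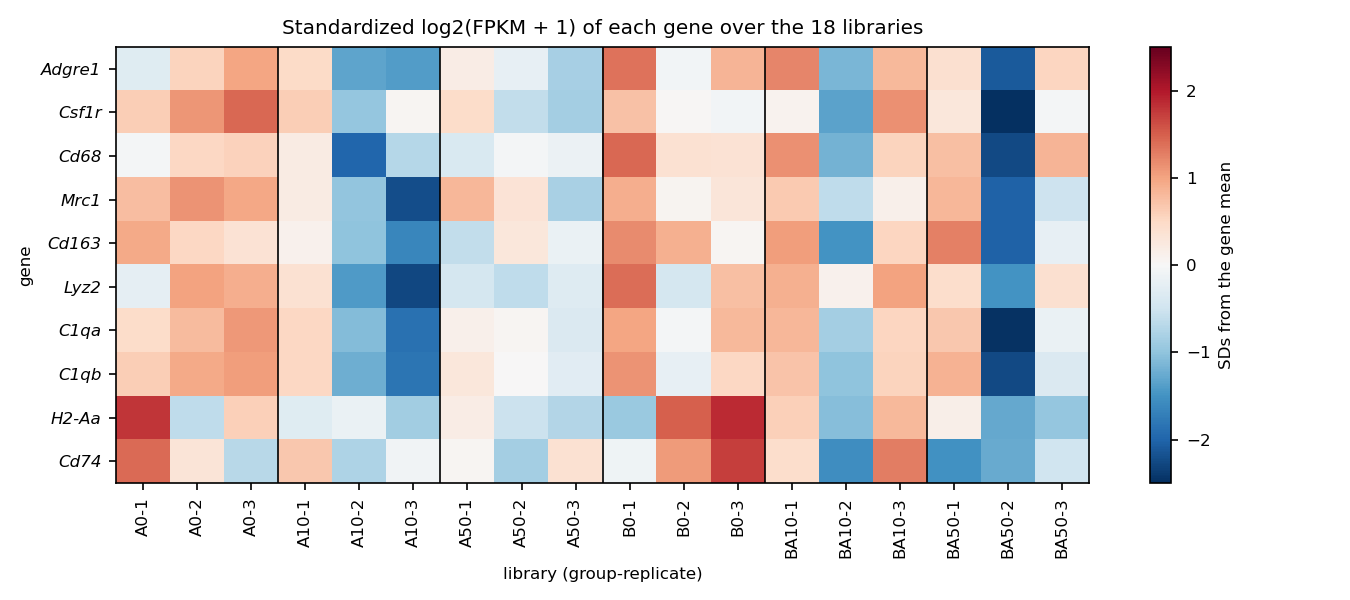
Each gene's log2(FPKM + 1) in each library, as SDs from that gene's mean over the 18 libraries (red above, blue below); columns are libraries, named by group and replicate. BA50 replicate 2 and A10 replicates 2 and 3 are blue in nearly all of the macrophage rows, and H2-Aa and Cd74 follow another pattern, highest in B0 replicate 3.

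**Figure D3:**
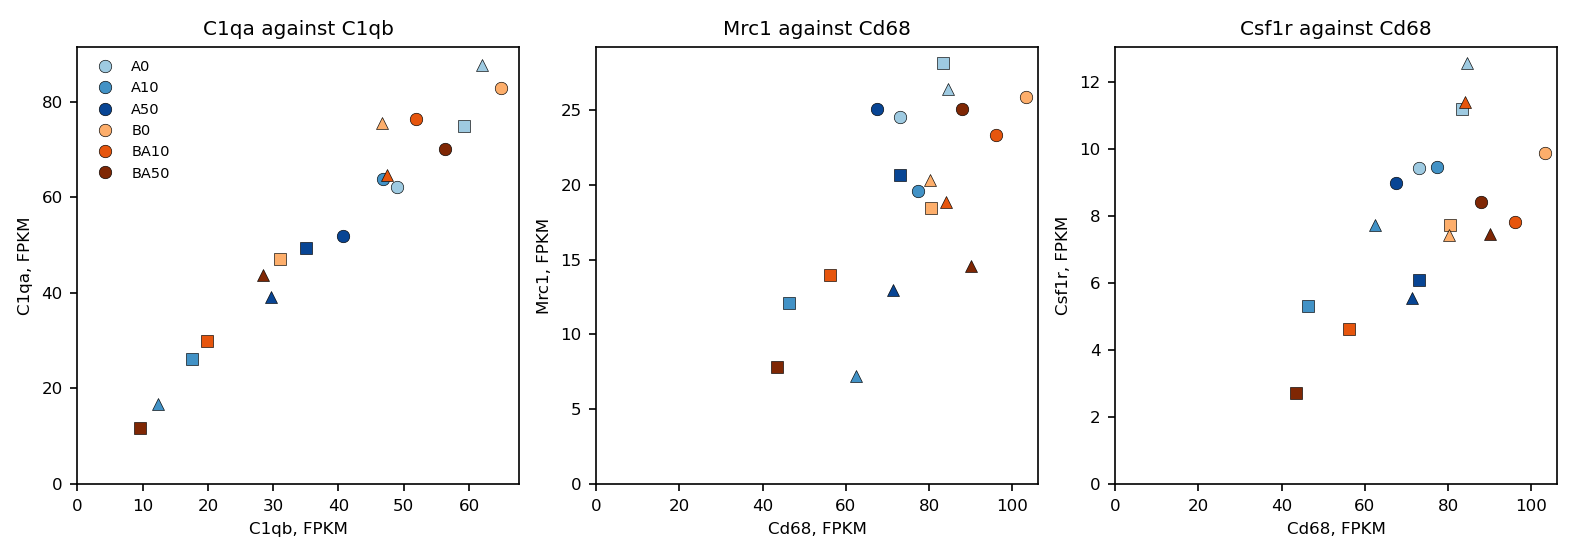
FPKM of 2 genes plotted against each other, 1 point per library, colored by group with circle, square and triangle for replicates 1, 2 and 3. C1qa against C1qb lies close to a line through the origin (ratio 1.22 to 1.62), and Mrc1 and Csf1r scatter more against Cd68.

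Other cell types differed between the same libraries. The summed FPKM of 7 spermatid genes was highest, at 10846, in BA50 replicate 2, the library lowest for most of the single macrophage genes, and was 4878 in A10 replicate 3 and 2359 in A10 replicate 1. The spermatid genes had r of -0.72 to -0.56 with the mean of the 8 macrophage genes, the 6 endothelial genes 0.46 to 0.77, and the 8 Sertoli genes 0.09 to 0.59. The sum of 8 Sertoli genes was lowest in A10 replicate 3, at 244 FPKM, and highest in BA50 replicate 2, at 878 FPKM. The part of these differences in the macrophage values was not tested.

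The genes most like the macrophage pattern, by Pearson r with the mean standardized value of the 8 macrophage genes over 18 libraries, were C1qc (0.97), Fermt3 (0.97), Btk (0.96), Ncf1 (0.95), Tm6sf1 (0.95), Nxpe5 (0.95), Ms4a7 (0.95), Hsd11b1 (0.95), Nrros (0.94) and F13a1 (0.94). Of 15781 other genes tested, 350 had an r over 0.8, and the median was 0.16. The MHC class II pattern, the mean of H2-Aa and Cd74, had no likeness of that strength. Its 10 highest were Eppin (0.84), Lvrn (0.83), Svs5 (0.83), Gbp5 (0.83), Il18bp (0.82), Psmb9 (0.81), Prepl (0.80), Sorl1 (0.80), Adamts4 (0.79) and Agrn (0.79), and 8 genes exceeded 0.8.

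The first question was whether the macrophage genes of testes from busulfan-treated mice differed from those of untreated mice. None of the 9 genes tested passed in any busulfan comparison (limma on log2(FPKM + 1), Benjamini-Hochberg adjusted p under 0.05 over all genes). In the comparison over the 3 AOS doses 38.1% of all genes tested passed, 13.3% higher and 24.8% lower with busulfan, and none of the 9 even at an unadjusted p under 0.05, which 47.4% of all genes reached. The exact permutation test of samples within doses called 39.2% of all genes and 0 of the 9. At single doses 13.8% of all genes passed in B0 vs A0, 18.9% in BA10 vs A10 and 19.9% in BA50 vs A50, again with 0 of the 9. At an unadjusted p under 0.05 the counts were 0 in B0 vs A0, 1 in BA10 vs A10 and 0 in BA50 vs A50, beside 24.9%, 32.9% and 32.3% of all genes. In each of these comparisons the groups overlapped for all 9 genes, while 33.2%, 31.2% and 41.7% of all genes in B0 vs A0, BA10 vs A10 and BA50 vs A50 had groups without overlap.

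Over the 3 doses the median log2 change of the 9 genes was 0.05, beside 0.01 for all genes. The changes went from -0.18 for Csf1r (SE 0.19, 95% interval -0.60 to 0.23, adjusted p = 0.472, limma) to 0.35 for Lyz2 (SE 0.20, 95% interval -0.08 to 0.78, adjusted p = 0.179, limma). C1qa had 0.05 (interval -0.64 to 0.74) and C1qb -0.01 (-0.70 to 0.67). Adgre1 had 0.15 (-0.19 to 0.50), Cd68 0.15 (-0.17 to 0.47), Mrc1 -0.03 (-0.49 to 0.42), Cd163 0.20 (-0.47 to 0.87) and Cd74 -0.05 (-0.53 to 0.43). These intervals leave room for moderate changes in either direction, above all for the C1q chains and Cd163. The spread within groups (SD of log2 values) of the 9 genes tested was 0.34 to 0.75 and exceeded that of 77.7% to 97.3% of all genes, whose median was 0.21.

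By dose, the medians were 0.00 in B0 vs A0, 0.57 in BA10 vs A10 and -0.22 in BA50 vs A50, beside -0.04, 0.03 and -0.01 for all genes. In BA10 vs A10 all 9 genes had a value above 0, from 0.03 for Csf1r to 0.92 for Lyz2 (SE 0.34, adjusted p = 0.0766, limma; exact permutation p = 0.2), with 0.78 for C1qa (adjusted p = 0.354). Without A10 replicate 3 and BA50 replicate 2 the median in BA10 vs A10 was 0.34 and the highest value 0.62, with all 9 still above 0. The Sertoli genes moved with them: 7 of 8 were above 0 in BA10 vs A10, with a median of 0.51 and 0 called, and their part was not tested. Lyz2 passed when A10 replicate 1 was left out, with 1.31 (adjusted p = 0.0119, limma) in BA10 vs A10 and 0.48 (adjusted p = 0.0429) over the doses. In BA50 vs A50, 8 of 9 genes had a value below 0, but without A10 replicate 3 and BA50 replicate 2 the median was 0.25, with 8 of 9 above 0. Whether the busulfan change at AOS 10 or AOS 50 differed from that without AOS was tested directly as an interaction. In that test 0% of all genes and 0 of the 9 passed at either dose. None of the 9 had an unadjusted p under 0.05, against 3.97% of all genes at AOS 10 and 6.28% at AOS 50. The busulfan change at AOS 10 was not tested against that at AOS 50. When values were scaled to 25 Sertoli, Leydig, peritubular and endothelial genes, the median of all genes moved from 0.01 to -0.23 over the doses and that of the 9 genes to -0.18, still with 0 called, while the medians of the 9 at single doses became -0.23, 0.33 and -0.45; the genes called in the whole table were then 223 higher and 6925 lower, against 2097 and 3921, and 3658 and 3441 after quantile normalization.

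**Figure D4:**
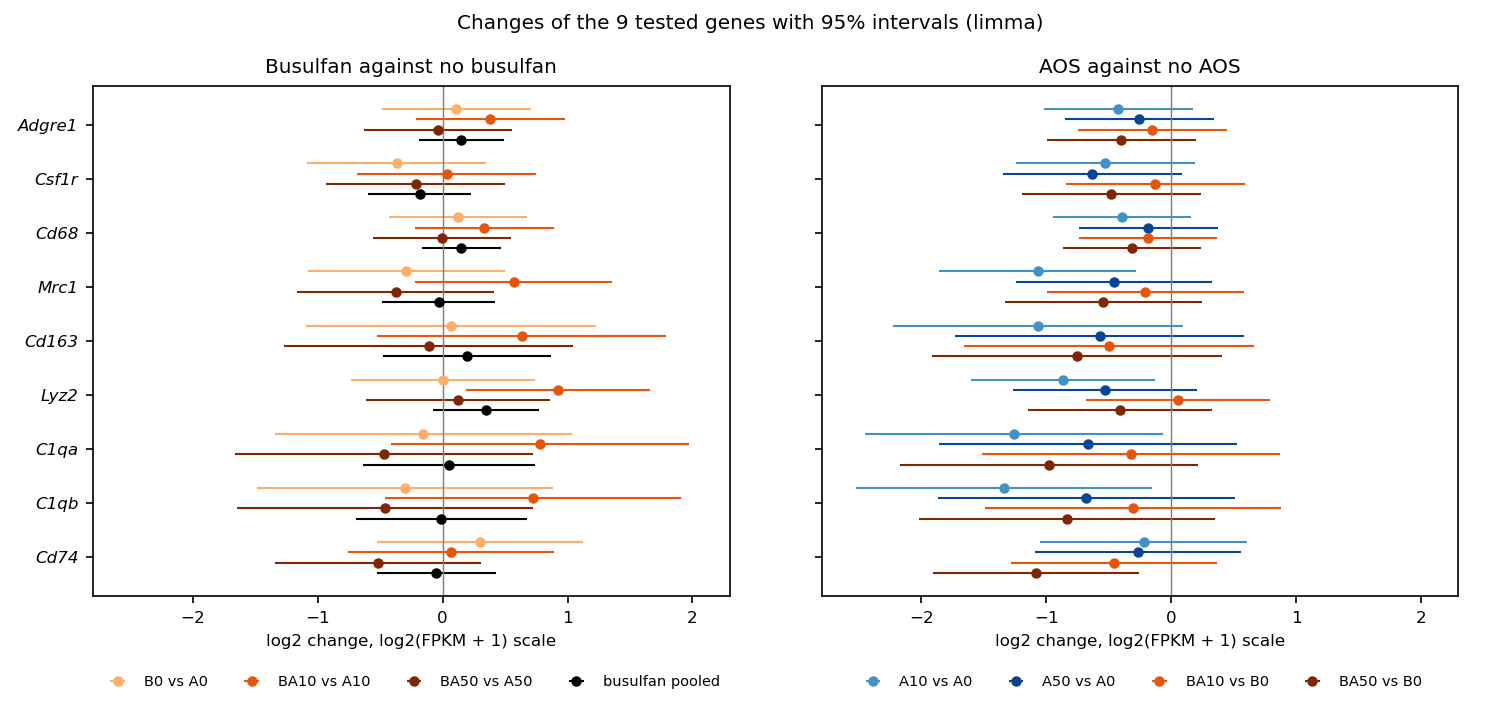
log2 change on the log2(FPKM + 1) scale (horizontal axis) of the 9 genes tested, with points for the limma estimate and lines for its 95% interval; the left panel holds the busulfan comparisons and the right panel the AOS comparisons. Over all doses the intervals of all 9 genes cross 0, and in A10 vs A0 all 9 points lie left of it.

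The second question was whether AOS in the medium went with other levels of these genes. Without busulfan, all 9 genes had values below 0 at both AOS doses, and none passed. In A10 vs A0 the median log2 change was -0.86, beside -0.06 for all genes, and 0% of all genes passed. At an unadjusted p under 0.05 there were 4 of 9, against 15.2% of all genes: C1qb -1.34 (SE 0.55), C1qa -1.26 (SE 0.56), Mrc1 -1.07 (SE 0.37) and Lyz2 -0.86 (SE 0.34), all with an adjusted p of 0.322 (limma). Mrc1, Cd163 and C1qb did not overlap, being lower in all A10 libraries, where 12.2% of all genes were; their exact permutation p was 0.1, the smallest that 3 against 3 libraries allow. Without A10 replicate 3 and BA50 replicate 2 the median was -0.56.

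In A50 vs A0 the median was -0.53, beside -0.06 for all genes, 0% of which passed. Csf1r, Cd163, Lyz2, C1qa and C1qb were lower in all A50 than in all A0 libraries, 5 of 9, where 23.2% of all genes were lower without overlap. Their changes were -0.63 for Csf1r (95% interval -1.35 to 0.09, adjusted p = 0.353, limma), -0.57 for Cd163, -0.53 for Lyz2, -0.67 for C1qa and -0.68 for C1qb, and none of the 9 had an unadjusted p under 0.05, against 15.6% of all genes. Both comparisons share the A0 libraries. The 8 macrophage genes also varied together (median r 0.83), so that the 9 genes are not separate observations and their counts are not comparable to a share of independent genes. Scaled to the 25 somatic genes, the medians were -0.65 in A10 vs A0 and -0.32 in A50 vs A0. The summed spermatid genes were 2417 to 4264 FPKM in A0, 2359 to 4878 in A10 and 3166 to 4073 in A50, and the summed endothelial genes 59.1 to 75.9, 54.1 to 59.8 and 47.3 to 51.5 FPKM. The summed Sertoli genes were 582 to 746 FPKM in A0, 244 to 589 in A10 and 487 to 603 in A50, and all 8 Sertoli genes had values below 0 in both comparisons, with medians of -0.76 and -0.32 and 0 called. The part of these cells was not tested.

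After busulfan, the AOS groups were compared with B0. In BA10 vs B0 the median was -0.21, beside -0.03 for all genes, with 0 of 9 called, 0 at an unadjusted p under 0.05 and 0 without overlap. Of all genes 0.0253% passed, 5.05% had an unadjusted p under 0.05 and 11.4% did not overlap. In BA50 vs B0 all 9 values were below 0, with a median of -0.54 beside -0.04 for all genes and 0 called, where 0.095% of all genes passed. Cd74 had the largest of these changes: it was lower in all BA50 libraries (1.29 ± 0.47 FPKM against 3.97 ± 1.64 FPKM in B0, SD, n = 3), with a log2 change of -1.08 (SE 0.39, adjusted p = 0.132, limma). Of all genes 13.5% were lower without overlap and 24.3% had an unadjusted p under 0.05. Without A10 replicate 3 and BA50 replicate 2 the median of the 9 genes in BA50 vs B0 was -0.13, while Cd74 had -1.04. Scaled to the 25 somatic genes the medians were 0.00 in BA10 vs B0 and -0.33 in BA50 vs B0. The summed endothelial genes were 96.7 to 107 FPKM in B0 and 37.01 to 84.6 in BA50, with 6 of 6 genes below 0 (median -0.74), and the summed spermatid genes 2273 to 3360 FPKM and 4985 to 10846 FPKM, with 7 of 7 genes above 0 (median 1.10), and none of these was called. In the B0 libraries adipocyte genes summed to 207 to 888 FPKM (42.5 to 138 in all other groups) and simple epithelium genes to 81.4 to 216 FPKM (17.8 to 48.9 in all other groups). The part of these tissues in the values of the 9 genes was not tested.

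The genes around these markers were read from fixed lists, and here some did move with busulfan. Over the 3 doses 13.3% of all genes rose and 24.8% fell. Other settings used for the lists below changed this background. Without the A0 and B0 groups 1279 of 15790 genes rose and 3168 fell. Scaled to the 25 somatic genes 223 rose and 6925 fell. Among 10 ligands of CSF1R and myeloid transcription factors, 5 rose and 0 fell, with a median of 0.31. Cebpb, a factor of inflammatory and myeloid gene control, was 35.6 to 59.2 FPKM in the 9 libraries without busulfan and 62.1 to 95.1 FPKM in the 9 with it, a log2 change of 0.82 (SE 0.09, adjusted p = 4.9e-06, limma). Cebpa, its relative in myeloid and fat cells, rose by 0.78 (SE 0.11, adjusted p = 2.94e-05). Csf1, which encodes a ligand of CSF1R, rose by 0.51 (SE 0.13, adjusted p = 0.00507), from 47.7 to 88.6 FPKM without busulfan to 76.9 to 138 FPKM with it, while its receptor gene Csf1r did not pass. Spi1, which encodes PU.1, had 0.19 (adjusted p = 0.284). Cebpa, Cebpb and Csf1 passed in all 27 alternative fits. Cebpa is also an adipocyte gene, and all 7 adipocyte genes tested rose as well over the doses, with a median of 1.18. By dose, 7 adipocyte genes were called in B0 vs A0 (median 2.56), 0 in BA10 vs A10 (median 0.56) and 0 in BA50 vs A50 (median 0.33). Cebpa rose by 0.58, 0.93 and 0.83 in these comparisons (adjusted p = 0.0472, 0.00201 and 0.00418, limma). The part of fat tissue was not tested. Without the A0 and B0 groups 4 of the 10 genes of this list rose, and scaled to the 25 somatic genes 3 rose and 1 fell.

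Among 27 other phagocyte genes tested, 7 rose and 0 fell, with a median of 0.26 (5 rose without the A0 and B0 groups, 5 to 10 with 1 library left out, and 3 rose and 1 fell when scaled to the 25 somatic genes). Gpnmb, a glycoprotein of phagocytes loaded with debris or lipid, rose by 0.90 (SE 0.15, adjusted p = 0.000265, limma), from 7.33 to 26.4 FPKM without busulfan to 17.02 to 33.01 FPKM with it. Lgals3, galectin-3, rose by 0.53 (adjusted p = 0.000106) and Ctsd, a lysosomal protease, by 0.50 (adjusted p = 0.000878), and all 3 passed in all 27 alternative fits. None of these genes is made by macrophages alone. Of the 27 genes 20 had a value above 0. Some known as markers of tissue macrophages, picked after their values were seen, lay on both sides of 0. Siglec1 had -0.19, Cx3cr1 -0.40, Lyve1 -0.40, Mertk 0.31, Vsig4 0.51, Folr2 0.30, Trem2 0.31 and Aif1 0.38, none of which passed. The scavenger receptor gene Msr1 rose by 0.25 (adjusted p = 0.0306, limma). The other called genes were Axl (0.40, adjusted p = 0.00378), Cd14 (0.39, adjusted p = 0.0289) and Ctsb (0.32, adjusted p = 0.0119). Of 4 neutrophil and monocyte genes tested, Camp (1.32), S100a8 (0.65) and Plac8 (0.31) rose, 3 of 4. The 7 further genes of that list were not tested for low values. Of these the neutrophil genes Ly6g, Mpo, Elane, Ngp and S100a9 stayed at or under 0.65 FPKM. Ltf reached 7.48 FPKM in B0 replicate 2 and Chil3 1.25 FPKM in BA10 replicate 1. Camp was highest in BA10 replicate 2 and BA50 replicate 2 (107.7 and 60.7 FPKM). The cell source of these transcripts was not tested. Without the A0 and B0 groups, or scaled to the 25 somatic genes, 1 of the 4 rose.

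Among 13 complement genes other than the members, 3 rose and 0 fell, with a median of 0.09: C1s1, a protease of the C1 complex, by 0.50, C3ar1, a receptor for the C3a fragment, by 0.41, and Itgb2, the β2 integrin chain, by 0.30 (adjusted p = 0.0212, 0.0316 and 0.0396, limma). C1qc had -0.08 (SE 0.34, adjusted p = 0.865). Leaving out 1 library at a time left 1 to 3 of them called, and scaled to the 25 somatic genes 0 were.

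In the MHC class II list 12 of 17 genes were tested, and 3 rose and 2 fell. The genes that fell were those of the RFX complex: Rfx5 was 6.58 to 7.83 FPKM in the 9 libraries without busulfan and 3.03 to 5.69 FPKM in the 9 with it, a log2 change of -0.49 (SE 0.08, adjusted p = 0.000236, limma). Rfxap was 5.53 to 6.97 FPKM and 2.99 to 5.47 FPKM, a change of -0.45 (SE 0.08, adjusted p = 0.00032). Neither overlapped between the libraries with and without busulfan, but the share of all genes that separated in this way was not counted. Both passed in all 27 alternative fits, whereas Rfxank, the remaining RFX subunit, had -0.05 (adjusted p = 0.551). RFX genes are expressed in many cell types, spermatocyte genes fell in the same libraries, and the part of those cells was not tested. Ciita, the co-activator, was listed at 0.01 to 0.09 FPKM in all 18 libraries, H2-Ab1 at 0.22 to 2.47 and H2-Eb1 at 0.04 to 0.62 FPKM. The genes that rose were Cd80, a costimulatory ligand (0.53, adjusted p = 0.0044), Ctss, the protease that trims the invariant chain (0.42, adjusted p = 0.0413), and Lgmn, an endosomal protease (0.25, adjusted p = 0.0388). Ctss lost its call in 14 and Lgmn in 17 of 27 alternative fits. Scaled to the 25 somatic genes 1 of the 12 rose and 5 fell, where 223 of all 15790 genes rose and 6925 fell.

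**Figure D5:**
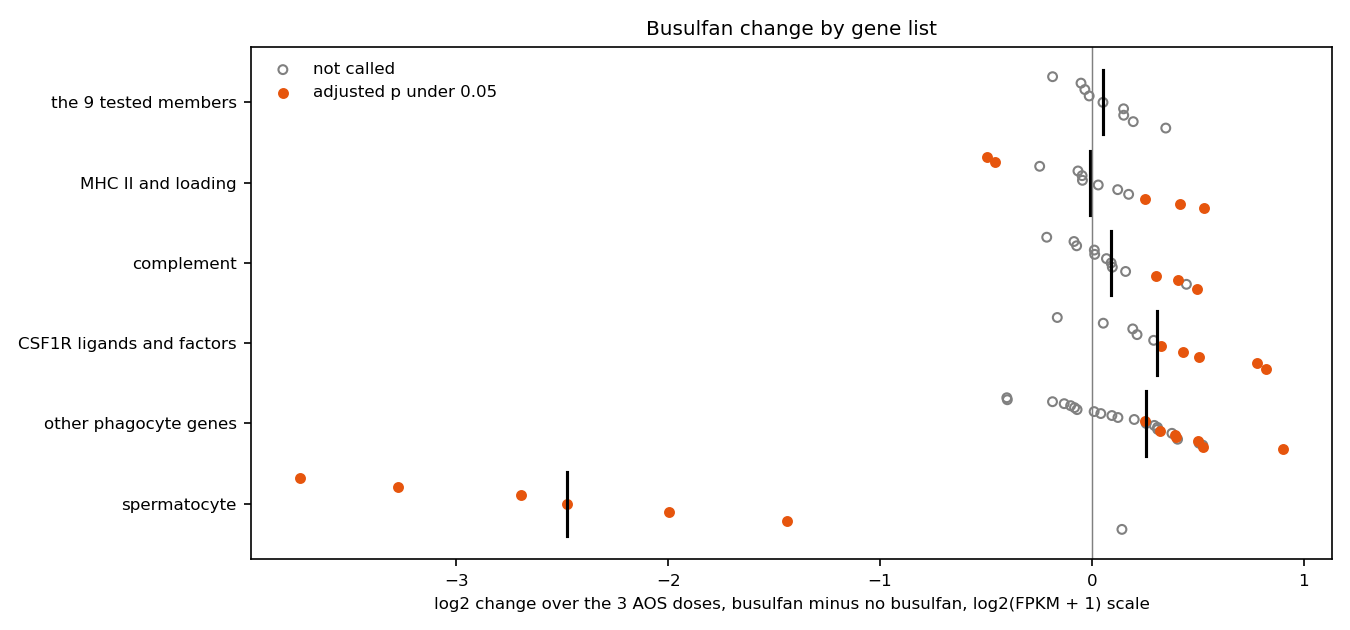
log2 change over the 3 AOS doses, busulfan minus no busulfan (horizontal axis), of each gene of 6 lists; each point is a gene, filled where the limma adjusted p was under 0.05, and black bars are list medians. The 9 tested members sit between -0.18 and 0.35 with none filled, next to filled points on the right among the CSF1R ligands and factors (5) and the other phagocyte genes (7), and 6 filled spermatocyte genes far to the left.

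No gene of the immune lists passed in any AOS comparison. In the comparisons with B0 the calls among the lists were 1 adipocyte and 3 epithelial genes lower in BA10, and 4 adipocyte and 3 epithelial genes lower in BA50. With the replicate block the calls in the whole table were 1 in BA10 vs B0, against 4 without it, and 4 in BA50 vs B0, against 15, so that some of these calls were lost. Over the 3 doses no gene passed among the dendritic cell (3 tested; Itgax 0.16), lymphocyte (1 tested; Cd3d 0.33), mast cell (1 tested; Tpsb2 -0.50), erythrocyte (3; Hba-a1 0.49), Sertoli (8; Sox9 0.35), peritubular (6; Actg2 0.28) and spermatid (7; Odf1 0.43) lists. With busulfan, 3 of 6 endothelial genes rose (Cdh5 by 0.46; 0 to 5 called with 1 library left out), 1 of 5 Leydig genes rose (Star by 0.75; 1 to 3 called), 3 of 6 epithelial genes rose and 1 fell, and 4 of 7 spermatogonial genes fell (Stra8 change -4.58). The epithelial genes rose in B0 vs A0 (5 of 6 called, median 2.60), with 0 called and medians of -0.09 in BA10 vs A10 and -0.36 in BA50 vs A50.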

How the data were processed

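RNA-seq values of 18 cultured testis samples in 6 groups of 3 were used. The authors deposited 1 table of FPKM values per gene and sample, with NCBI gene numbers. Per the submitters' processing notes HISAT, Bowtie2, RSEM and GRCm38.p5 were used, whereas the methods name SOAPaligner 2.20 and RPKM; which of them made the table is not given in the sources used here. Low values were not whole multiples of a read (20.6% of ratios within 0.1 of a whole number, 20% by chance), so read depth is unknown and no count test was run. Samples were grouped by their labels. Gene numbers (20811, beside 1846 provider gene models) were matched to symbols through RefSeq, and 20656 were found.

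Values were tested as log2(FPKM + 1) with limma 3.58.1 in R 4.3.3 (lmFit, eBayes with trend; 12 residual and 2.56 prior degrees of freedom), with all samples in 1 fit and 1 coefficient per group, since the DEGseq test of the methods needs counts. Only genes that reached 1 FPKM in 3 or more samples were kept, and Benjamini-Hochberg adjustment ran over all of them. Fold changes on this scale understate those of low genes. Exact two-sided permutation tests used 20 splits for 3 against 3 samples and 8000 splits within doses. On simulated data for the comparison over doses (15790 genes), 188 of 200 genes changed by log2 1 and 199 of 200 changed by log2 2 were called, with 9 and 8 unchanged genes called. For B0 vs A0 the numbers were 150 and 189, with 12 and 12 unchanged genes called. The changed genes were drawn from all genes tested, whose median spread within groups was 0.21 (SD of log2 values). The 9 members tested had spreads of 0.34 to 0.75, so these rates cannot be read as those for the members. Figures and tables were made with Python 3.11.15, pandas 2.3.3, SciPy 1.17.1 and matplotlib 3.10.9.

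The members and gene lists were chosen with earlier results of these data known, and no list is independent evidence. Named genes were all members, at most 3 called genes per list and direction, the gene with the largest change of a list without calls, and the 10 genes most like each pattern. Spi1, Rfxank, C1qc, Ciita, H2-Ab1, H2-Eb1, Siglec1, Cx3cr1, Lyve1, Mertk, Vsig4, Folr2, Trem2, Msr1, Cd14, Axl, Ctsb, Aif1, Clec7a, Zbtb46 and the lymphoid, neutrophil and monocyte markers were added after their values were seen. For replicate pairing, deviations of same-numbered samples from their group means correlated at -0.43 to 0.56, over 0.1 in 9 of 21 pairs, and in every pair only of BA50 vs B0. Alternatives were the replicate block, only the groups compared, other pseudocounts, filters and scalings, the methods' limits and leaving out samples.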

Additional observations from a re-analysis of the deposited data

How the results depend on the processing

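The count of called members was 0 in all 10 comparisons, and stayed 0 with a pseudocount of 0.1, without a filter, with a filter at a mean of 5 FPKM, after quantile normalization, scaled to 25 somatic genes, without the trend, in a fit of only the groups compared (9 comparisons, since the one over the doses uses all groups), and at the methods' limits (adjusted p of 0.001 or less and a log2 change of 1 or more). With the replicate block, which pairs samples of the same number, the count was 0 in each comparison, and no other call of a member changed; over all genes it gave 4 calls against 15 in BA50 vs B0 and 1 against 4 in BA10 vs B0. Leaving out 1 sample at a time gave 0 to 1 members called in BA10 vs A10 and 0 to 1 over the doses, the 1 being Lyz2 without A10 replicate 1, and 0 elsewhere. Of 2410 values of single members under an alternative, 2408 kept their side of the threshold, 2 newly passed it (Lyz2, as above), 0 were called with the opposite sign, and 112 values that passed in neither fit changed sign. Chosen after seeing the data, leaving out A10 replicate 3 with BA50 replicate 2, and using only AOS 10 and 50, gave 0 called members; the median over doses was 0.15 and 0.16. Over all genes the calls moved with the setting: 2173 in B0 vs A0 became 1450 without A0 replicate 1 and 3678 with somatic scaling, 2987 in BA10 vs A10 became 1123 in a fit of only those groups, and 15 in BA50 vs B0 became 0 without BA50 replicate 2 and 1115 without BA50 replicate 1. In BA10 vs B0, 4 became 0 without BA10 replicate 1 and 16 without B0 replicate 2. The causes were not tested. The read depth is unknown, so no limit from depth can be given.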

Other observations

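The ratio of Csf1r to Cd68, chosen after its values were seen, was 0.129, 0.134 and 0.148 in A0 and 0.0956, 0.0957 and 0.0928 in B0, without overlap, while it was 0.122, 0.115 and 0.124 in A10 against 0.0813, 0.0822 and 0.136 in BA10, where 1 BA10 library exceeded all of A10. In A50 it was 0.133, 0.0834 and 0.0781, and in BA50 0.0957, 0.0623 and 0.083, which overlapped. Other ratios were looked at as well, and no test of this ratio was made. Among all single genes tested, 33.2% had groups without overlap in B0 vs A0.

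Genes of mast cells, another immune cell type, were seen mainly in A0: the summed FPKM of 6 mast cell genes was 2.11, 15.3 and 3.24 in A0 and 0.23 to 1.17 in the other 15 libraries. Tpsb2, a mast cell tryptase, read 1.14, 7.52 and 1.32 FPKM in A0 and Cpa3, a mast cell carboxypeptidase, 0.40, 3.33 and 0.83 FPKM. A0 replicate 2 was thus far above the other A0 libraries. Tpsb2, the only gene of this list tested, was called lower in B0 vs A0 (-1.23, adjusted p = 0.036, limma), where 13.8% of all genes passed. Its changes of -1.34 in A10 vs A0 and -1.20 in A50 vs A0 did not pass.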
